A study of Homo sapiens with 36 samples.

Results

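Occupancy by GATA2 was described at 33 genes known as somatic drivers of myeloid neoplasms or as germline predisposition genes. The genes were chosen by name, with earlier results of these data known. All 33 were found among 19970 protein-coding genes of chromosomes 1 to 22 and X. A gene was counted as having a peak in a library when the summit of a peak lay in the gene body or within 10 kb of either end. At least 1 library had such a peak at 20 of the 33 genes (60.6%), against 8407 of all protein-coding genes (42.1%).

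GATA2, a DNA-binding protein with a pair of zinc fingers that maintains haematopoietic stem and progenitor cells, binds GATA letters in enhancers and promoters, often together with partners such as TAL1. Germline loss of one GATA2 allele, or a missense change such as T354M in its second zinc finger, predisposes carriers to myelodysplastic syndrome and acute myeloid leukaemia. Additional mutations in the genes described here, which encode DNA methylation enzymes, Polycomb and other chromatin proteins, cohesin, splicing factors, signalling proteins and transcription factors, accompany the progression of such disease.

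CUT&Tag, in which an antibody tethers a transposase to chromatin and the released fragments are sequenced, was performed on HUDEP-2, a line of immortalized human cells that resemble erythroid progenitors. Wild-type cells with a lentiviral empty vector, and GATA2-low cells (genotype given as GATA2+/-) with the empty vector, HA-tagged GATA2 (HA-GATA2) or HA-tagged GATA2(T354M) (HA-T354M), were profiled with an antibody against GATA2. The 3 kinds of GATA2-low cells were also profiled with an antibody against the HA tag. Each of the 7 groups held 4 libraries, and the 8 IgG libraries of the 36 described were not used here.

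All cells were grown with erythropoietin, stem cell factor, doxycycline and dexamethasone, and infected cells were sorted for GFP. Which promoter drives the tagged proteins, how GATA2+/- cells were made and whether they are 1 clone were not stated in the labels. Separate cultures are not named for the replicates, so p-values reflect spread among the libraries alone, and that spread may be technical. For replicate 1 of the GATA2-low empty-vector anti-GATA2 libraries the genotype label reads wild-type and the title GATA2 low; the title was followed.

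Peak lists were deposited per library, and read totals are unknown, so the length of a list is the only measure of how much was detected. Lists held 6555 to 9121 peaks in wild-type cells, 1823 to 3648 in GATA2-low empty-vector cells, 7064 to 12171 with HA-GATA2 and 2779 to 6311 with HA-T354M under anti-GATA2. Under anti-HA they held 1 to 6 peaks with the empty vector, 1912 to 6065 with HA-GATA2 and 426 to 744 with HA-T354M. As a check of the lists, ALAS2, KLF1, HDC, ZFPM1 and TAL1, erythroid and mast cell genes bound by GATA factors, had a peak in all 16 anti-GATA2 libraries and in all 4 HA-GATA2 anti-HA libraries. Of the HA-T354M anti-HA libraries, 4 of 4 had a peak at HDC and ZFPM1, but 1 of 4 at ALAS2 and TAL1 and 0 of 4 at KLF1. The short HA-T354M anti-HA lists thus missed some of these genes too. Empty-vector anti-HA libraries had a peak at none of them.

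In anti-GATA2 libraries of wild-type cells 14.8 ± 3.1 of the 33 driver genes had a peak (SD, n = 4), with 12, 13, 19 and 15 genes in replicates 1 to 4. GATA2-low empty-vector libraries held a peak at 3, 4, 6 and 8 driver genes (5.25 ± 2.22, n = 4). With HA-GATA2 the libraries held 12, 13, 15 and 15 driver genes (13.8 ± 1.5), and with HA-T354M 11, 7, 11 and 12 (10.2 ± 2.22). The GATA2-low empty-vector libraries did not overlap the wild-type or the HA-GATA2 libraries in this number. They overlapped the HA-T354M libraries, whose replicate 2 had fewer driver genes with a peak than empty-vector replicate 4. Under anti-HA, 7, 8, 8 and 4 driver genes had a peak with HA-GATA2, 1, 1, 1 and 0 with HA-T354M, and none in any of the 4 empty-vector libraries.

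The groups also differed in list length and in the share of all genes with a peak. HA-GATA2 lists were longer than wild-type lists (means of 10395 and 7625 peaks) without more driver genes. A mean of 44.7% of the driver genes and 25.4% of all genes had a peak in wild-type libraries, against 15.9% and 8.58% in GATA2-low empty-vector libraries. The shares were 41.7% and 26.4% with HA-GATA2 and 31.0% and 16.1% with HA-T354M. Under anti-HA they were 20.4% and 12.9% with HA-GATA2 and 2.27% and 2.35% with HA-T354M. A peak in all 4 libraries was held by 12 driver genes in wild-type cells (36.4%, against 17.6% of all genes), by 3 in GATA2-low empty-vector cells (9.09% against 5.01%), by 11 with HA-GATA2 (33.3% against 19.3%) and by 7 with HA-T354M (21.2% against 8.75%).

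**Figure D1:**
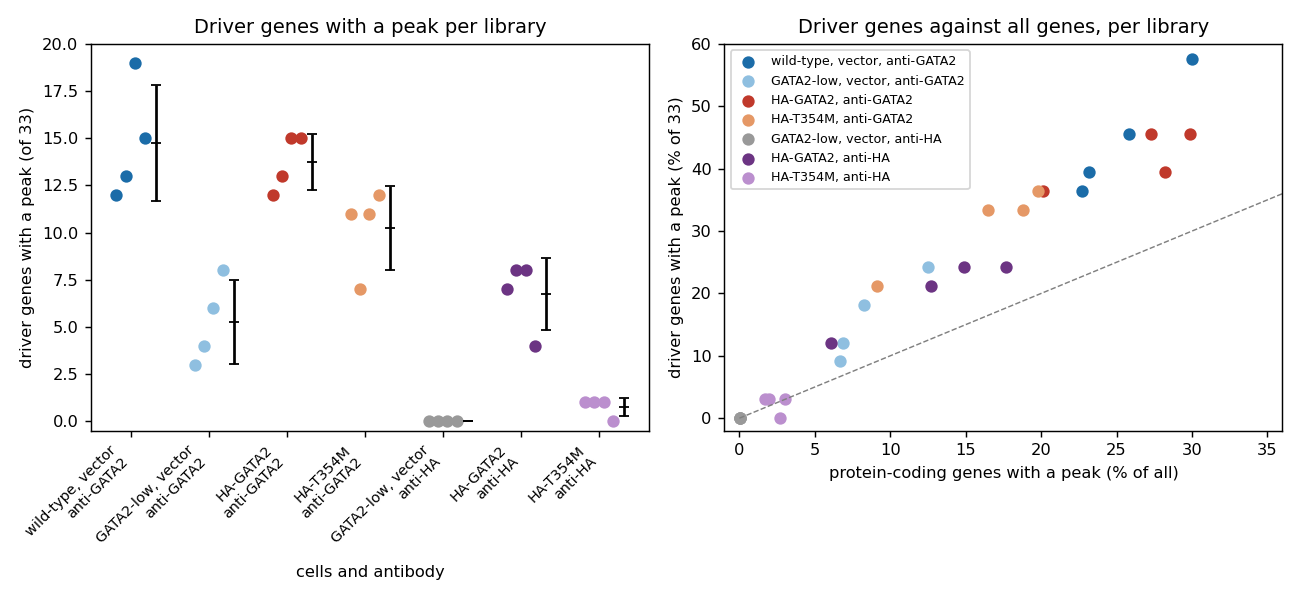
Number of driver genes with a peak in each library (left; points are libraries, bars the mean and SD of 4) and the percent of the 33 driver genes against the percent of all 19970 protein-coding genes with a peak (right; the dashed line marks equal percents). All 16 anti-GATA2 libraries and all 4 HA-GATA2 anti-HA libraries lie above the dashed line.

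The driver genes are long, and a long gene has a wider window for a peak: their median length was 66.1 kb, against 24.2 kb for all protein-coding genes. Per megabase of window, wild-type libraries held a mean of 6.71 peaks at the driver genes and 4.61 at all genes. GATA2-low empty-vector libraries held 1.55 and 1.27, HA-GATA2 libraries 7.55 and 5.48, and HA-T354M libraries 4.13 and 2.67. Among genes of up to 20 kb, 3 of 8 driver genes and 12.5% of all genes had a peak in all 4 wild-type libraries, and from 20 to 100 kb 6 of 14 driver genes and 18.6% of all genes did. Above 100 kb it was 3 of 11 driver genes and 28.7% of all genes. These shares describe the list and were not tested, since its genes were chosen with results known.

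By role, all 7 Polycomb and chromatin genes had a peak in some library, as did 3 of 4 DNA methylation and metabolism genes and 3 of 4 cohesin genes, 2 of 4 signalling genes, 2 of 3 transcription factor genes and 1 of 3 other drivers, where 42.1% of all genes had one. Of the 4 splicing factor genes only SRSF2, and of the 4 germline predisposition genes only DDX41, had a peak in any of the 28 libraries. The 13 genes with none were TET2, SMC3, SF3B1, U2AF1, ZRSR2, NRAS, NF1, ETV6, NPM1, PPM1D, SAMD9, SAMD9L and ANKRD26. They include the methylcytosine dioxygenase TET2, the RAS GTPase NRAS with its regulator NF1, and the nucleolar protein NPM1. U2AF1 has a near-identical copy on chromosome 21 in this assembly, so reads from it may not be placed uniquely.

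**Figure D2:**
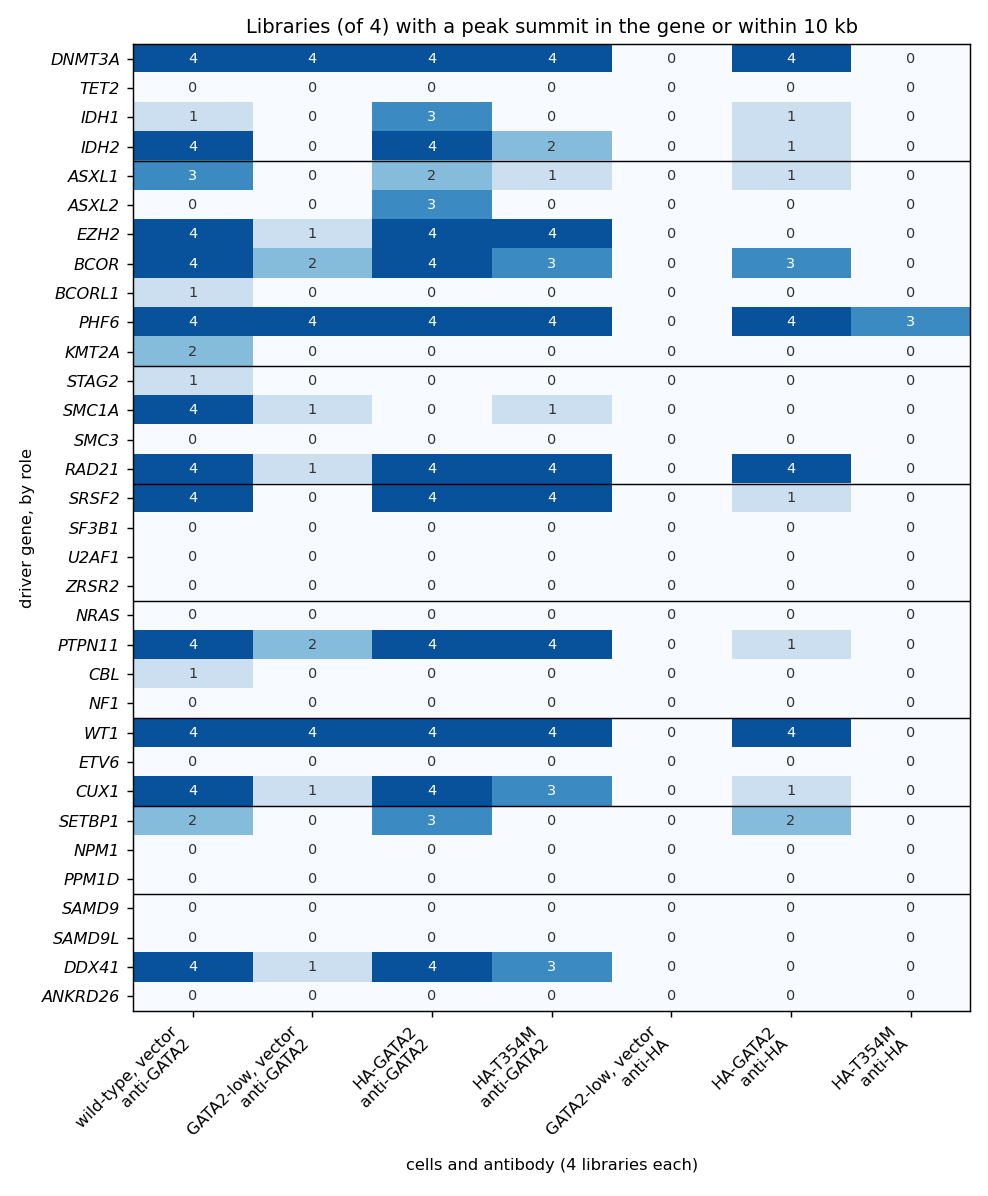
Number of libraries, of 4 in each of 7 groups, with a peak summit in the body of each of the 33 driver genes or within 10 kb; darker cells mean more libraries, and horizontal lines part the roles. DNMT3A, PHF6 and WT1 stand at 4 of 4 in all anti-GATA2 groups, and 13 genes stand at 0 throughout.

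Peaks of all libraries that overlapped were merged into 17277 sites, of which 46 lay in the windows of the driver genes. Inside the gene body lay 29 of these sites and outside it 17; exons and introns are not told apart in the gene table used. Within 1000 bp of a gene end lay 12 of the 46 (26.1%), close to the 26.2% of all 12914 sites in windows of protein-coding genes. A single library accounted for 11 of the 46 sites.

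Promoters, taken as the 250 bases before a transcription start, were available from RefSeq (GRCh38.p14, the same build as the hg38 peaks) for 28 of the 33 genes; PHF6, RAD21, SRSF2, PTPN11 and CBL were not in that table. Of 51 promoters of these 28 genes, 6 promoters of 5 genes (IDH1, IDH2, EZH2, KMT2A and DDX41) overlapped a peak. Those of DDX41, EZH2 and KMT2A are shown, each with a peak summit within it in at least 2 libraries. An IDH1 promoter, chr2:208255072-208255321, had a summit within it in 1 library and is not shown. Capitals mark matches on either strand to AGATAA as well as AGATAG, besides TGATAA as well as TGATAG (together called GATA letters here). They also mark matches to the ETS factor letters CCGGAA and to the GC box letters GGGCGG. The printed promoters run 5′ to 3′ on the gene's strand and end at the base before the start.
DDX41 promoter, chr5:177516962-177517211, minus strand: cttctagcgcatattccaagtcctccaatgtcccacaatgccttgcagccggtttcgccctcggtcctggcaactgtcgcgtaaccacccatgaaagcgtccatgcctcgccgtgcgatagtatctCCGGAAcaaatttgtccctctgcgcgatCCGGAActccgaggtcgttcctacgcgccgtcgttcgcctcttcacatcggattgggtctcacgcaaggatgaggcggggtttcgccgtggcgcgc
EZH2 promoter, chr7:148884292-148884541, minus strand: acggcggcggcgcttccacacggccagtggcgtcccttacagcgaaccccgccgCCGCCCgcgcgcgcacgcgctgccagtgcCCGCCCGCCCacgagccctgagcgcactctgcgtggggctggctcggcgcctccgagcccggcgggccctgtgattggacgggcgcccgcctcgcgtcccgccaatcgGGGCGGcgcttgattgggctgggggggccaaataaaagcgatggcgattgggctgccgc
KMT2A promoter, chr11:118436242-118436491, plus strand: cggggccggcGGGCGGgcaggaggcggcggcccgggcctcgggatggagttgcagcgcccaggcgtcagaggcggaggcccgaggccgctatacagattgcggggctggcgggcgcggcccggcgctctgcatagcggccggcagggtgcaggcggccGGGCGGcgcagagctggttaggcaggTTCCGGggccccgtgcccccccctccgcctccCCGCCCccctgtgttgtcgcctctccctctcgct

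The DDX41 promoter overlapped a peak in 12 libraries and held 2 CCGGAA matches, at positions -124 and -96 from the start. The EZH2 promoter overlapped a peak in 6 libraries and held 4 GC box matches. The KMT2A promoter overlapped a peak in 2 wild-type libraries and held 3 GC box matches and 1 CCGGAA match. None of the 6 promoters with a peak (0 of 6) held the GATA letters, which 17.9% of 21942 protein-coding promoters of this length held. GC box letters were in 53.8% and CCGGAA in 17.9% of those promoters. Among promoters with a peak in all 4 wild-type libraries (862), 24.8% held GATA letters and 23.5% CCGGAA, against 18.1% and 16.1% of the 18725 with a peak in no library. These matches describe the letters in the window only.

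The position of a gene's strongest peak within its list is given as a percentile. It is the percent of the list's peaks at or below that peak by -log10 q, with tied peaks given their average rank. The fold enrichment, the -log10 q and so these ranks are the authors' values per peak. They were used here to rank peaks within a list. A difference in rank between lists of different lengths cannot be read as a change in occupancy between groups.

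DNMT3A, the de novo DNA methyltransferase, had a peak in all 16 anti-GATA2 libraries and in the 4 HA-GATA2 anti-HA libraries, and in 0 of 4 HA-T354M anti-HA libraries. As many libraries or more had a peak at only 796 of the 19970 genes. Its strongest peak stood at percentiles 87.8, 88.7, 94.1 and 90.8 of the wild-type lists and 69.3, 68.7, 80.9 and 70.9 of the GATA2-low empty-vector lists. In HA-GATA2 lists the percentiles were 94.3, 93.7, 94.8 and 93.6, and in HA-T354M lists 90.2, 73.9, 86.3 and 86.8. The DNMT3A peak thus stood at percentile 68.7 or higher in every anti-GATA2 list.

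Inside DNMT3A lay both of its sites. The site at chr2:25255993-25257220 carried the peak in all 20 of those libraries. A weaker site at chr2:25311258-25311959 had a peak in 4 of 4 wild-type, 1 of 4 GATA2-low empty-vector, 4 of 4 HA-GATA2 and 4 of 4 HA-T354M libraries of anti-GATA2. It also had one in 4 of 4 HA-GATA2 anti-HA libraries.

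IDH2, the mitochondrial isocitrate dehydrogenase, had a peak in 4 of 4 wild-type, 0 of 4 GATA2-low empty-vector, 4 of 4 HA-GATA2 and 2 of 4 HA-T354M libraries of anti-GATA2. The percentiles of its strongest peak were 50.2, 7.44, 48.6 and 29.9 in wild-type lists, 29.9, 62.9, 65.5 and 67.0 in HA-GATA2 lists, and 5.83 and 21.6 in HA-T354M replicates 1 and 4. These were mid-list or weak peaks. IDH1, the cytosolic form, had a peak in 1 of 4 wild-type, 0 of 4 GATA2-low empty-vector, 3 of 4 HA-GATA2 and 0 of 4 HA-T354M libraries, at percentiles of at most 20.4 with HA-GATA2. Each of IDH1 and IDH2 had a peak in 1 of 4 HA-GATA2 anti-HA libraries.

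EZH2, the catalytic subunit of a Polycomb histone methyltransferase complex, had a peak in 4 of 4 wild-type, 1 of 4 GATA2-low empty-vector, 4 of 4 HA-GATA2 and 4 of 4 HA-T354M libraries of anti-GATA2. Under anti-HA it had none, with HA-GATA2 as with HA-T354M. The strongest peak stood at percentiles 56.1, 65.7, 77.9 and 79.7 in wild-type lists and at 78.2, 90.0, 87.8 and 89.5 in HA-GATA2 lists. It stood at 63.2, 21.0, 47.1 and 70.7 in HA-T354M lists and at 21.8 in the empty-vector replicate 2. This peak was a site inside the gene, chr7:148828827-148829400, 54308 bp from the nearest start in the promoter table. A peak on the promoter printed above was found in 3 HA-GATA2, 2 wild-type and 1 HA-T354M libraries.

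PHF6, a PHD finger chromatin protein encoded on the X chromosome, had a peak in more libraries than any other driver gene, 23 of 28. Only 257 of the 19970 genes had a peak in as many. All 16 anti-GATA2 libraries, all 4 HA-GATA2 and 3 of 4 HA-T354M anti-HA libraries had it, and PHF6 was the only driver gene with a peak in a HA-T354M anti-HA library. Its percentiles were 85.4, 82.4, 88.0 and 82.6 in wild-type lists, 37.1, 40.3, 30.0 and 58.6 in GATA2-low empty-vector lists, 89.6, 87.5, 89.1 and 88.2 with HA-GATA2, and 81.5, 71.9, 81.1 and 83.5 with HA-T354M. Under anti-HA they were 87.6, 78.5, 79.5 and 65.7 with HA-GATA2 and 23.5, 35.2 and 49.5 in HA-T354M replicates 1 to 3.

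This PHF6 peak lay at chrX:134372826-134373535, with its summit 139 bp beyond the lower-coordinate end of the gene. The number of PHF6 peaks differed more than their presence. Wild-type libraries had 2, 2, 3 and 4 peaks at PHF6, GATA2-low empty-vector libraries 1 each, HA-GATA2 libraries 4, 5, 4 and 5, and HA-T354M libraries 3, 1, 1 and 1. The HA-GATA2 libraries did not overlap the HA-T354M or the empty-vector libraries in this number, and neither did the wild-type libraries overlap the empty-vector ones. The same separation, with more peaks in the first-named group, was met by 14.3% of all genes for HA-GATA2 over HA-T354M, 33.4% for HA-GATA2 over the empty vector and 22.6% for wild-type over the empty vector.

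BCOR, a transcriptional corepressor of a Polycomb complex, had the most sites of the driver genes. Wild-type libraries had 5, 5, 8 and 5 BCOR peaks and HA-GATA2 libraries 5, 6, 6 and 6. GATA2-low empty-vector libraries had 0, 0, 2 and 2, and HA-T354M libraries 5, 0, 3 and 5, so that HA-T354M replicate 2, the shortest list of its group, had none. Under anti-HA the HA-GATA2 libraries had 2, 2, 4 and 0 and the HA-T354M libraries none. The sites at chrX:40172517-40173134, chrX:40173579-40174600 and chrX:40175114-40176304 lay within 4428 bp of the upper gene end. Further BCOR sites were inside the gene at chrX:40103441-40104151 and outside it at chrX:40043811-40044285.

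**Figure D3:**
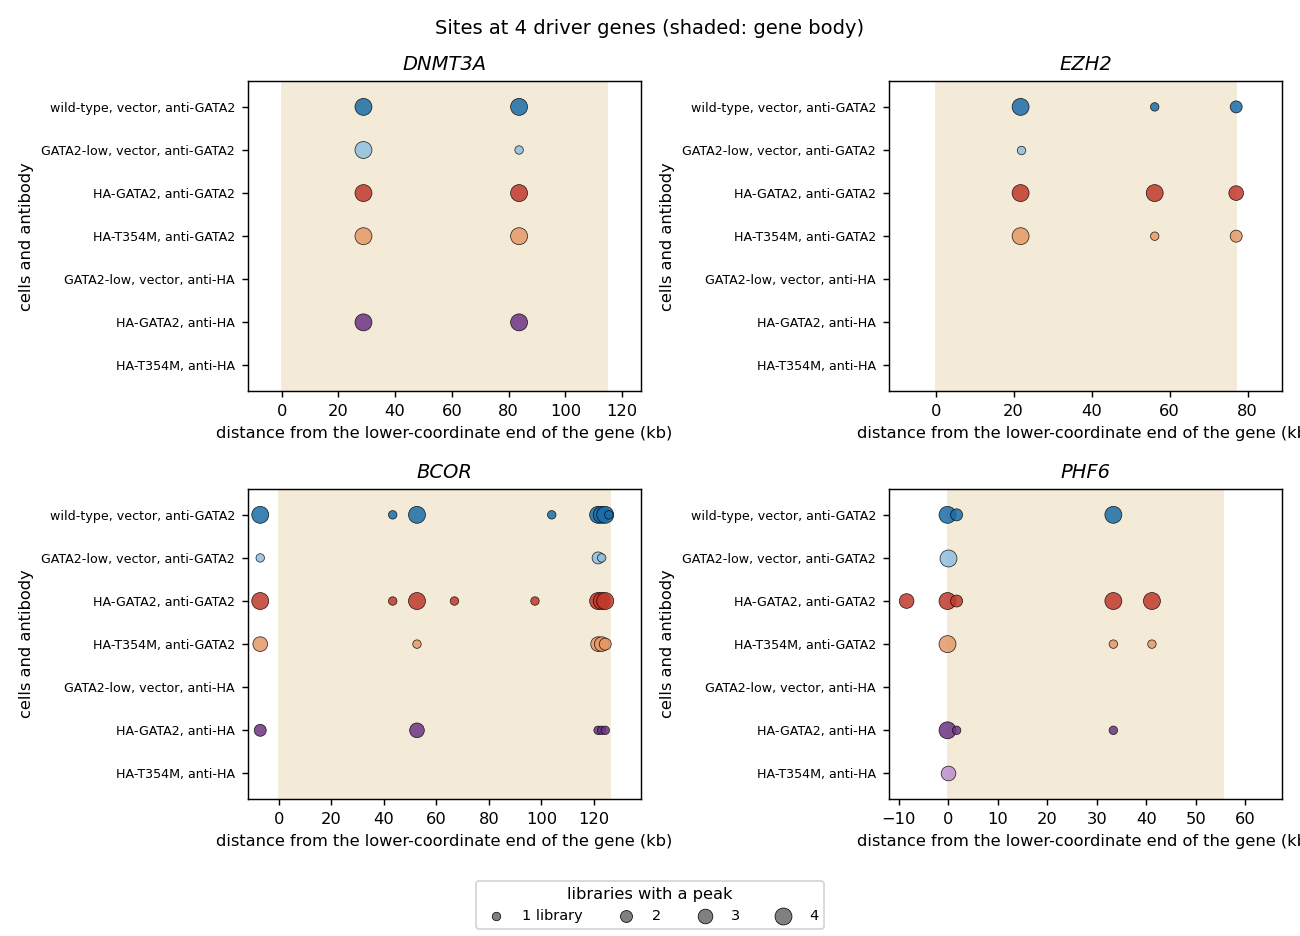
Merged sites at DNMT3A, EZH2, BCOR and PHF6 by group; the horizontal axis gives the distance from the lower-coordinate end of the gene in kb, shading marks the gene body, and larger points mean more of 4 libraries with a peak. DNMT3A has a site in 20 libraries, and BCOR has sites clustered near 1 gene end and others spread over and beside the gene.

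The remaining chromatin genes had fewer peaks. ASXL1, a partner of a histone deubiquitinase, had a peak in 3 of 4 wild-type, 0 of 4 GATA2-low empty-vector, 2 of 4 HA-GATA2 and 1 of 4 HA-T354M libraries of anti-GATA2, at percentiles of at most 19.8. Its paralogue ASXL2 had a peak only with HA-GATA2 and anti-GATA2, in 3 of 4 libraries at percentiles 56.9, 62.9 and 50.7. KMT2A, a histone methyltransferase rearranged in leukaemia, had a peak in 2 wild-type libraries and BCORL1, a relative of BCOR, in 1. The site overlapping the KMT2A promoter printed above stood at a mean percentile of 13.2 in those 2 lists.

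RAD21, the kleisin subunit of cohesin, had a peak in 4 of 4 wild-type, 1 of 4 GATA2-low empty-vector, 4 of 4 HA-GATA2 and 4 of 4 HA-T354M libraries of anti-GATA2. Under anti-HA every HA-GATA2 library (4) but no HA-T354M library (0 of 4) had it. Its percentiles were 50.2, 58.1, 71.4 and 59.9 in wild-type lists, 72.7, 80.4, 83.4 and 84.1 with HA-GATA2, and 47.5, 38.7, 55.9 and 63.1 with HA-T354M. The HA-GATA2 anti-HA percentiles of 47.5, 1.5, 65.3 and 6.35 were spread widely, with replicates 2 and 4 near the bottom of their lists. The site with most libraries (17 of 28) lay 4430 bp beyond the upper end of the gene.

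SMC1A, a cohesin ATPase, had a peak in 4 of 4 wild-type libraries at percentiles 14.5, 36.6, 4.08 and 43.0. It had one in 1 of 4 GATA2-low empty-vector, 0 of 4 HA-GATA2 and 1 of 4 HA-T354M libraries. STAG2, the cohesin subunit most often mutated in myeloid disease, had a peak in wild-type replicate 3 alone.

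SRSF2, a serine- and arginine-rich splicing protein, had a peak in 4 of 4 wild-type, 0 of 4 GATA2-low empty-vector, 4 of 4 HA-GATA2 and 4 of 4 HA-T354M libraries of anti-GATA2. The percentiles were 60.7, 45.5, 55.7 and 57.1 in wild-type lists, 25.2, 47.3, 19.4 and 14.5 with HA-GATA2, and 4.66, 9.82, 24.4 and 34.3 with HA-T354M. In the wild-type lists the SRSF2 peak was thus mid-list, and in most others it was low. Its main site, chr17:76726487-76727299, lay 7299 bp beyond the lower gene end and within the windows of JMJD6, METTL23 and MFSD11 too, so the peak cannot be assigned to SRSF2 alone.

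PTPN11, a tyrosine phosphatase of the RAS pathway, had a peak in 4 of 4 wild-type, 2 of 4 GATA2-low empty-vector, 4 of 4 HA-GATA2 and 4 of 4 HA-T354M libraries of anti-GATA2. The PTPN11 site at chr12:112413679-112414377 lay 4975 bp before the lower gene end, also in the window of RPL6, a ribosomal protein gene. The percentiles of the strongest peak were 59.8, 64.8, 67.0 and 53.5 in wild-type lists and 7.72, 46.8, 49.4 and 49.7 with HA-GATA2. CBL, a ubiquitin ligase of receptor signalling, had a peak in wild-type replicate 3 alone.

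WT1, a zinc finger regulator mutated in leukaemia, had a peak in all 16 anti-GATA2 and all 4 HA-GATA2 anti-HA libraries, at 1 site inside the gene, chr11:32420734-32421653. The percentiles were 84.2, 79.6, 85.1 and 85.2 in wild-type lists but 0.658, 13.4, 10.9 and 53.7 in GATA2-low empty-vector lists. With HA-GATA2 they were 42.9, 49.2, 67.4 and 59.0, and with HA-T354M 50.1, 18.9, 72.3 and 63.8. In lists of equal length, described further on, the WT1 peak was in 4 of 4 wild-type and 3 of 4 empty-vector libraries. CUX1, a homeobox gene on chromosome 7, had a peak in 4 of 4 wild-type, 1 of 4 GATA2-low empty-vector, 4 of 4 HA-GATA2 and 3 of 4 HA-T354M libraries, at chr7:101856831-101857429 inside the gene.

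SETBP1, which encodes a binding partner of the SET oncoprotein, had a peak in 2 of 4 wild-type, 0 of 4 GATA2-low empty-vector, 3 of 4 HA-GATA2 and 0 of 4 HA-T354M libraries of anti-GATA2, and in 2 of 4 HA-GATA2 anti-HA libraries. DDX41, an RNA helicase mutated in the germline of families with myeloid disease, had a peak in 4 of 4 wild-type, 1 of 4 GATA2-low empty-vector, 4 of 4 HA-GATA2 and 3 of 4 HA-T354M libraries of anti-GATA2 and in no anti-HA library. The DDX41 site, chr5:177516900-177517526, covered the promoter printed above and also lay in the windows of DOK3 and FAM193B. Its percentiles were 46.3, 69.8, 38.2 and 36.3 in wild-type lists and 63.9, 65.3, 71.3 and 2.21 with HA-GATA2, so that HA-GATA2 replicate 4 stood far below the others.

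**Figure D4:**
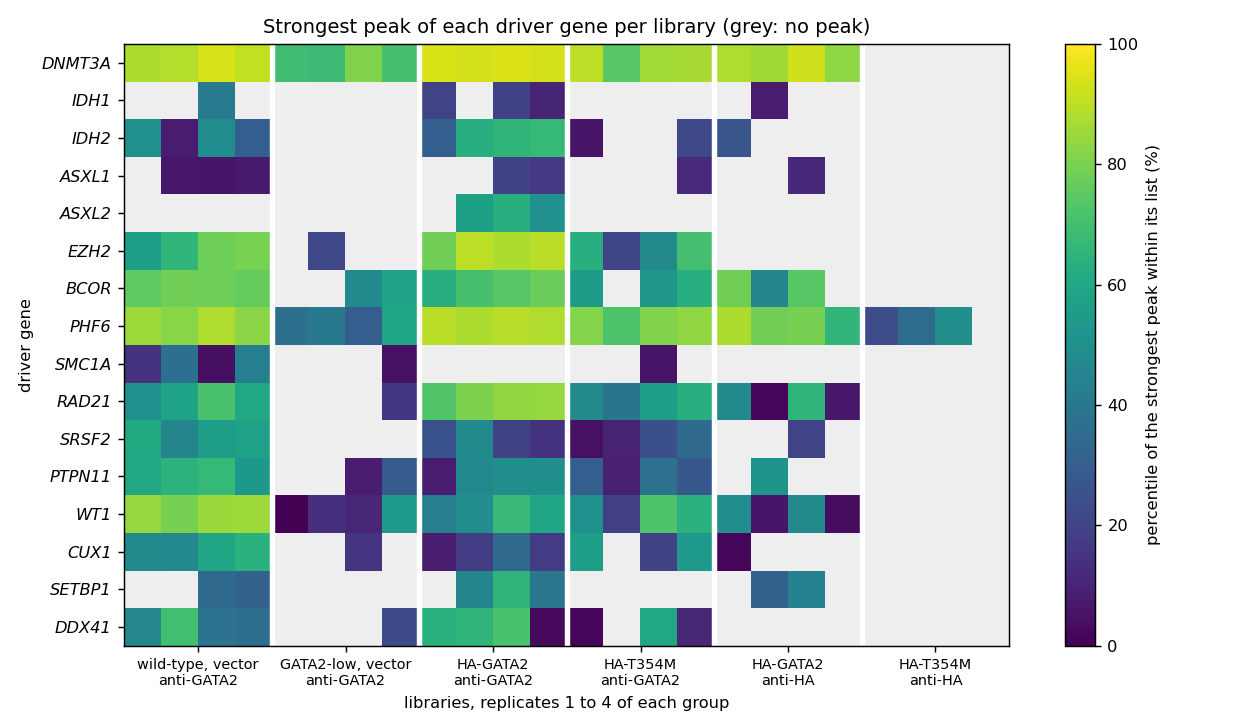
Percentile of each gene's strongest peak within the list of each library (colour, 0 to 100%; grey, no peak), for driver genes with a peak in at least 3 of 4 libraries of any group; the empty-vector anti-HA group, without any such peak, is left out. DNMT3A and PHF6 stay in the upper part of the wild-type and HA-GATA2 lists, and PHF6 alone has a colour under HA-T354M with anti-HA.

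The first comparison asked which driver genes lose a GATA2 peak when GATA2 is low, between the empty-vector cells of both genotypes. IDH2 and SRSF2 had a peak in each of the 4 wild-type libraries but in 0 of 4 GATA2-low ones, 2 of the 19 driver genes with a peak in either group (10.5%). Of all 6953 genes with a peak in either group, 15.8% were divided in this way (0.0144% in the opposite way), so the driver genes did not stand above the background. By sites, both SRSF2 sites were divided in this way but neither IDH2 site, each found in 3 of 4 wild-type libraries. Of 37 driver gene sites 5 (13.5%) were divided, against 13.7% of all 11156 sites. More wild-type than GATA2-low libraries had a peak at 16 driver genes, fewer at 0, and as many at 3 (DNMT3A, PHF6 and WT1), and 84.4% of all genes also had more. The median difference was 2.0 libraries over the driver genes and 2.0 over all genes tested.

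Fisher's exact test gave p = 0.0286 for IDH2 and SRSF2, the smallest that 4 against 4 libraries allow. Its Benjamini-Hochberg adjusted p over all 6953 genes was 0.181, and 0 genes passed 0.05 (1097 at an unadjusted p of 0.0286). Tested by the number of peaks in an exact permutation test, BCOR (means of 5.75 and 1.0 peaks) and PHF6 (2.75 and 1.0) also reached an unadjusted p of 0.0286, with 22.6% of all genes doing so. That exact permutation test called 0 genes after adjustment (adjusted p = 0.126). Without GATA2-low empty-vector replicate 4, the longest list of its group, 5 driver genes were divided (IDH2, SMC1A, RAD21, SRSF2 and DDX41). For this and later counts with a replicate left out, the share of all genes was not counted, so no background stands beside them.

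Adding HA-GATA2 to GATA2-low cells was compared with the empty vector, which serves as the control of the next comparison too. IDH2 and SRSF2 again had a peak in each of the 4 HA-GATA2 libraries but in 0 of 4 empty-vector ones, 2 of 16 driver genes (12.5%) against 23.4% of all 6640 genes. Of the driver genes 12 had a peak in more HA-GATA2 libraries, 1 (SMC1A) in fewer and 3 in as many, and 82.8% of all genes had more. By the number of peaks, IDH2, EZH2, BCOR, PHF6, RAD21, SRSF2 and PTPN11 reached an unadjusted exact permutation p of 0.0286, 7 of 16 (43.8%) against 33.4% of all genes. After adjustment 0 genes were called by Fisher's exact test (adjusted p = 0.122, 1552 at an unadjusted p of 0.0286) or by the permutation test (adjusted p = 0.0856). Without HA-GATA2 replicate 1, 4 driver genes were divided (IDH2, ASXL2, SRSF2 and SETBP1), and without empty-vector replicate 4 also 4 (IDH2, RAD21, SRSF2 and DDX41).

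With HA-T354M against the same empty-vector libraries, SRSF2 alone stood at 4 of 4 against 0 of 4, 1 of 13 driver genes (7.69%) against 4.29% of all 4917 genes (0.0203% in the opposite direction). By sites 0 of 25 did so, against 5.87% of all 7613 sites. Both SRSF2 sites were in 3 of 4 HA-T354M libraries, and only together did they reach 4 of 4. More HA-T354M libraries had a peak at 9 driver genes, and as many at 4, with more at 67.8% of all genes. IDH2, at 2 of 4 against 0 of 4, had an unadjusted Fisher's exact p of 0.429. No gene (0) passed after adjustment in Fisher's exact test (adjusted p = 0.663, 212 at an unadjusted p of 0.0286) or in the exact permutation test of peak numbers (adjusted p = 0.484). Without empty-vector replicate 2, EZH2 joined SRSF2, and without replicate 4 RAD21 did.

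HA-GATA2 was then set directly against HA-T354M with anti-GATA2, which asks whether the zinc finger mutation changes occupancy at these genes. Among 16 driver genes 0 stood at 4 of 4 against 0 of 4 in either direction, against 8.3% of all 7056 genes with HA-GATA2 higher (0.0% with HA-T354M higher). IDH1, ASXL2 and SETBP1 came closest, each in 3 of 4 HA-GATA2 and 0 of 4 HA-T354M libraries (Fisher's exact p = 0.143, adjusted p = 0.618). A peak was in more HA-GATA2 libraries at 8 driver genes, in more HA-T354M libraries at 1 (SMC1A) and in as many at 7, with HA-GATA2 ahead at 61.9% of all genes. By sites, one beside IDH2 at chr15:90109388-90109860, singled out once its values were known, was the only one of 36 at 4 of 4 against 0 of 4, where 10.2% of all 14531 sites stood.

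By peak number, IDH2 (means of 2.0 and 0.5 peaks) and PHF6 (4.5 and 1.5) reached an unadjusted exact permutation p of 0.0286, against 14.3% of all genes. The adjusted p was 0.2 for both, and 0 genes passed. Nor did any gene (0) pass in Fisher's exact test (adjusted p = 0.344, 586 at an unadjusted p of 0.0286). HA-T354M lists were shorter than HA-GATA2 lists, and the part of list length in these differences was not tested beyond the lists of equal length described further on. ASXL2 and SETBP1 were divided without HA-GATA2 replicate 1, the shortest list of its group, and IDH1 without replicate 2.

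Set against wild-type cells, HA-GATA2 cells had a peak in 0 of 4 libraries at SMC1A, where wild-type cells had 4 of 4 (Fisher's exact p = 0.0286, adjusted p = 0.42). It was 1 of 20 driver genes (5.0%), against 1.96% of all 8253 genes in that direction. In the other direction 0 driver genes and 4.83% of all genes were divided, with 3 driver genes (IDH1, ASXL2 and SETBP1) in more HA-GATA2 libraries, 6 in more wild-type libraries and 11 equal. HA-GATA2 was ahead at 30.0% of all genes, and the share with wild-type ahead was not counted. The mean difference was -0.2 libraries over the driver genes and 0.0921 over all genes tested, and the median 0.0 over both. The SMC1A site, chrX:53374334-53374689, lay inside the gene and 399 bp from its lower end, and 1.2% of all 16782 sites were divided in its direction. In both Fisher's exact test (561 genes at an unadjusted p of 0.0286) and the exact permutation test of peak numbers, 0 genes were called after adjustment. Without HA-GATA2 replicate 1, ASXL2 was divided as well.

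HA-T354M cells had a peak in fewer libraries than wild-type cells at 12 driver genes, in more at 0 (7.3% of all genes) and in as many at 7. The share of all genes with fewer was not counted. The mean difference was -0.947 libraries over the driver genes and -1.04 over all genes tested, and the median -1.0 over both. None of the 19 driver genes was divided, against 4.06% of all 7194 genes with wild-type higher and 0.222% with HA-T354M higher. After adjustment Fisher's exact test called 0 genes (adjusted p = 0.667, 308 at an unadjusted p of 0.0286), as did the exact permutation test of peak numbers. SMC1A was divided without HA-T354M replicate 3. The comparisons with wild-type cells and those between the lentiviral cells share their libraries and are not independent.

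With anti-HA, the question was at which driver genes the tagged proteins could be found. DNMT3A, PHF6, RAD21 and WT1 had a peak in each of the 4 HA-GATA2 libraries but in 0 of 4 empty-vector ones, 4 of 12 driver genes (33.3%) against 28.7% of all 4002 genes. The other 8 genes with a HA-GATA2 anti-HA peak were BCOR in 3 libraries, SETBP1 in 2, and IDH1, IDH2, ASXL1, SRSF2, PTPN11 and CUX1 in 1 each. All 12 thus had more HA-GATA2 libraries, as had 99.9% of all genes. Since the empty-vector lists held 1 to 6 peaks, none of them at a driver gene, any gene with a peak in all 4 tagged libraries reaches the smallest p. The adjusted p was 0.0996 in Fisher's exact test, which called 0 genes (1148 at an unadjusted p of 0.0286), and the exact permutation test called 0 too.

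HA-T354M gave an anti-HA peak at 1 driver gene, PHF6, in 3 of 4 libraries, so 0 of 1 stood at 4 of 4 against 0 of 4, with 23.0% of all 853 genes doing so and 99.6% having more HA-T354M libraries. PHF6 met that split without HA-T354M replicate 4. Neither Fisher's exact test (adjusted p = 0.124, 196 genes at an unadjusted p of 0.0286) nor the exact permutation test called a gene after adjustment (0).

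In the direct anti-HA comparison DNMT3A, RAD21 and WT1 had a peak in each of the 4 HA-GATA2 libraries but in 0 of 4 HA-T354M ones. They were 3 of 12 driver genes (25.0%), against 14.0% of all 4033 genes. PHF6 stood at 4 of 4 against 3 of 4 (Fisher's exact p = 1.0). All 12 genes had a peak in more HA-GATA2 libraries, as did 92.9% of all genes. Fisher's exact p for each of the 3 was 0.0286 and the adjusted p 0.205; 0 genes passed after adjustment (563 at an unadjusted p of 0.0286), and the exact permutation test of peak numbers called 0 (adjusted p = 0.177). The same 3 genes had an anti-GATA2 peak in 4 of 4 HA-T354M libraries. That antibody also recognises endogenous GATA2. In GATA2-low empty-vector cells it gave a peak in 4 of 4 libraries at DNMT3A and WT1 and in 1 of 4 at RAD21. The HA-T354M anti-HA lists held only 426 to 744 peaks. Why these genes had an anti-GATA2 but no anti-HA peak with HA-T354M was not tested.

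Lists were cut to equal length to set the groups side by side at the same number of peaks. With the 1823 strongest peaks of each anti-GATA2 list, 3.75 ± 0.5 driver genes had a peak in wild-type libraries, 3.5 ± 0.577 in GATA2-low empty-vector libraries, 3.25 ± 0.5 with HA-GATA2 and 2.75 ± 0.5 with HA-T354M (SD, n = 4 each). These are 11.4%, 10.6%, 9.85% and 8.33% of the driver genes, against 6.43%, 6.51%, 5.93% and 6.04% of all genes. At equal length the group means lay within 1.0 gene of each other.

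DNMT3A and PHF6 kept a peak in 4 of 4 libraries of all 4 anti-GATA2 groups at this length. WT1 kept it in 4 of 4 wild-type, 3 of 4 GATA2-low empty-vector, 0 of 4 HA-GATA2 and 1 of 4 HA-T354M libraries. EZH2 stood highest with HA-GATA2, with 1 of 4 wild-type, 1 of 4 empty-vector, 4 of 4 HA-GATA2 and 1 of 4 HA-T354M libraries. BCOR kept a peak in 2 wild-type and 2 empty-vector libraries and RAD21 in 1 library with each tagged protein; IDH2, SRSF2, PTPN11, CUX1, SMC1A and DDX41 kept none. With the 426 strongest anti-HA peaks, PHF6 kept its peak in 3 of 4 HA-T354M libraries but in 0 of 4 with HA-GATA2, and DNMT3A in 0 of 4 and 1 of 4.

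In tests at equal length, 0 driver genes were divided in the first 3 comparisons, where 1.49%, 5.8% and 3.36% of all genes were with the first group higher. Between HA-GATA2 and HA-T354M at 2779 peaks per list, WT1 stood at 0 of 4 against 4 of 4, the direction that 3.1% of all 2741 genes took.

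A list of 48 further genes of myeloid neoplasms, with receptors, RAS pathway, chromatin, splicing and transcription factor genes, was described in the same way. A peak in some library was found at 37 of the 48, where 42.1% of all genes had one. Per library 28.0 ± 3.46 had a peak in wild-type, 10.5 ± 3.32 in GATA2-low empty-vector, 28.8 ± 4.03 in HA-GATA2 and 19.8 ± 4.19 in HA-T354M anti-GATA2 libraries (SD, n = 4 each). The shares of all genes in these groups were 25.4%, 8.58%, 26.4% and 16.1%, so the further genes followed the same order. After adjustment Fisher's exact test called 0 of them in each of the 9 comparisons. At 4 of 4 against 0 of 4 stood 7 of 35 in the first comparison (15.8% of all genes), 10 of 35 with HA-GATA2 over the empty vector (23.4%) and 5 of 27 with HA-T354M over the empty vector (4.29%; KIT, FLT3, KDM6A, IKZF1 and MECOM). With HA-T354M over wild-type cells it was 0 of 35 (0.222%), and 2 of 35 had the opposite split (PRPF8 and U2AF2; 4.06%). Under anti-HA it was 8 of 25 with HA-GATA2 over the empty vector (28.7%), 1 of 6 with HA-T354M (CALR; 23.0%) and 6 of 25 between the tagged proteins (14.0%). Between the tagged proteins with anti-GATA2, and with HA-GATA2 over wild-type cells, the share of these genes lay below that of all genes.

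Among these genes IKZF1, the lymphoid and erythroid zinc finger factor IKAROS, stood at 4, 0, 4 and 4 of 4 libraries in wild-type, GATA2-low empty-vector, HA-GATA2 and HA-T354M cells. KDM6A, a histone demethylase, stood at the same numbers, and MECOM, a transcription factor of stem cells, and FLT3, a receptor tyrosine kinase, at 3, 0, 4 and 4. ASXL3, a relative of ASXL1, stood at 4, 0, 4 and 1. TET3, EZH1, JARID2 and STAT3, a dioxygenase related to TET2, a methyltransferase related to EZH2, a Polycomb cofactor and a cytokine-activated factor, had a peak in all 16 anti-GATA2 libraries. Like DNMT3A, they and the methyltransferase gene DNMT3B had an anti-HA peak in every HA-GATA2 library (4) but in 0 of 4 HA-T354M libraries. Their mean percentiles in wild-type lists were 93.7 for TET3, 93.6 for EZH1, 92.2 for JARID2, 90.0 for STAT3 and 70.6 for DNMT3B.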

How the data were processed

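CUT&Tag peak lists of 28 HUDEP-2 libraries (7 groups of 4) were used. Per the submitters' processing notes, reads were handled with MACS2 2.2.7.1, Bowtie2 2.2.5, cutadapt 3.3, deepTools 3.5.3 and FastQC on hg38, at settings that were not stated. Each library's own list was deposited in the narrowPeak layout of 10 columns, with a score, a fold enrichment (a linear ratio) and the -log10 p and -log10 q of each peak, all set by the authors. The deposited -log10 q was at least 6.00 in every list, so weaker enrichment was not seen. Shorter lists miss weak peaks first. The deposited score and fold were not compared between lists, and -log10 q ranked peaks within a list; cutting lists to equal length used that rank, and 1 alternative set a common minimum on -log10 q.

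Of 120964 peaks, 120509 on chromosomes 1 to 22 and X were kept. Gene positions and promoters came from RefSeq (GRCh38.p14). A summit inside the gene or at most 10 kb away counted as a peak of that gene. Per gene, Fisher's exact test (two-sided, 4 against 4 libraries) was adjusted by Benjamini-Hochberg over all protein-coding genes with a peak in any of the 8 libraries, with a threshold of 0.05; genes at 4 of 4 against 0 of 4 were counted as divided. Peak numbers were tested by exact permutation (70 splits, two-sided). A second adjustment ran over genes found in exactly 4 of 8 libraries. Other alternatives were other windows (no flank, 5 kb, 50 kb, gene ends within 1000 bp), any overlap of the peak in place of its summit, -log10 q of at least 15, lists of equal length, each replicate left out and a replicate block. The tests were checked on simulated data. Python 3.11.15 with pandas 2.3.3, numpy 2.4.6 and scipy 1.17.1 was used.

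The driver genes, the 48 further genes and the tests were chosen with earlier results of these data known. By rule, driver genes with a peak in at least 3 of 4 libraries of any group were described in full. Sites with a peak in at least 3 of 4 libraries of any group were named, up to 15 by number of libraries. Of the further genes, up to 10 at 4 of 4 against 0 of 4 in 4 of the 9 comparisons were named, by mean percentile; some results among these genes are not reported here. Peak sequences were not analysed here.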

Additional observations from a re-analysis of the deposited data

Results flagged for a closer look

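Replicate 4 of the HA-T354M anti-HA libraries had a peak at 0 of the 33 driver genes, and so 0 peaks at them, where each of the other 3 libraries of its group had 1, at PHF6. The gap to the nearest library was the whole range of the group, a ratio of 1.0, above the critical value of Dixon's test for 4 libraries. When the other 3 values are equal this ratio is always 1.0, so the flag is no evidence that the library stands apart. This list held 730 peaks, more than replicates 1 and 2 with 426 and 480. The usual chance rate of about 1 in 20 groups does not hold for such small counts, and 12 groups of values were checked.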

How the results depend on the processing

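Counts of driver genes at 4 of 4 against 0 of 4 are given in the order wild-type over empty vector, HA-GATA2 over empty vector, HA-T354M over empty vector, HA-GATA2 over HA-T354M, HA-GATA2 over wild-type, HA-T354M over wild-type, and under anti-HA HA-GATA2 over empty vector, HA-T354M over empty vector and HA-GATA2 over HA-T354M. The main counts were 2, 2, 1, 0, 1, 0, 4, 0 and 3. For other windows, the stricter -log10 q and a replicate left out, the share of all genes divided was not counted. Without a flank the counts for wild-type over empty vector, HA-T354M over empty vector and HA-GATA2 over empty vector under anti-HA became 1 (PHF6, without IDH2 and SRSF2), 0 and 2. With a flank of 5 kb the first 3 became 1, 1 and 0, and with 50 kb wild-type over empty vector gave 3 (IDH2, KMT2A and NF1, without SRSF2) and those of HA-GATA2 and HA-T354M over empty vector became 5 and 3 (IDH2 kept and SRSF2 lost in the former, SRSF2 lost in the latter). With gene ends alone the first 3 became 1, 1 and 0, and those of HA-GATA2 under anti-HA 1 over empty vector and 0 over HA-T354M. With -log10 q of at least 15 wild-type over empty vector became 6 (EZH2, RAD21, SRSF2, PTPN11, CUX1 and DDX41), HA-T354M over empty vector stayed at 1 with RAD21 in place of SRSF2, HA-GATA2 over HA-T354M became 1 (IDH2), HA-GATA2 over wild-type 0 and HA-GATA2 over empty vector under anti-HA 2. At this threshold HA-GATA2 over empty vector gave 3 (IDH2, EZH2 and RAD21, without SRSF2). Both anti-HA comparisons of HA-GATA2 then gave DNMT3A and PHF6, without RAD21 and WT1. Without a flank HA-GATA2 over empty vector also gave 3 (IDH2, PHF6 and PTPN11, without SRSF2). Lists of equal length gave 0, 0, 0, 1 (WT1, with HA-T354M higher), 0, 0, 0, 0 and 0, where the anti-HA comparisons with the empty vector held only 1 peak per list. Exact permutation of peak numbers, unadjusted, gave 4 for wild-type and 7 for HA-GATA2 over empty vector and 2 for HA-GATA2 over HA-T354M.

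Leaving out each replicate gave 2 to 5, 2 to 4, 1 to 2, 0 to 2, 1 to 2, 0 to 1, 4 to 5, 0 to 1 and 3 to 4. Under anti-HA, BCOR was added in both comparisons of HA-GATA2 without HA-GATA2 replicate 4. Adjusted over the genes with a peak in exactly 4 of 8 libraries, Fisher's exact test called 2, 2, 0, 0, 1, 0, 4, 0 and 3 driver genes. The adjustment over all genes called 0. Of all genes so chosen, 1097 of 1240 were called for wild-type and 1552 of 1737 for HA-GATA2 over empty vector. For HA-GATA2 over wild-type it was 561 of 933. Under anti-HA it was 1148 of 1150 for HA-GATA2 over empty vector and 563 of 681 over HA-T354M. Most genes so chosen were thus called, so these calls do not set the driver genes apart. Empty-vector anti-HA lists held 1 to 6 peaks, so genes chosen there were nearly always divided. Driver genes per library became 9.5, 19.8, 6.5 and 3.75 in wild-type cells without a flank, with 50 kb, with gene ends alone and at equal length. In the same order they became 10.2, 20.8, 5.0 and 3.25 with HA-GATA2, 5.75, 16.5, 3.5 and 2.75 with HA-T354M and 4.25, 10.8, 1.25 and 0.25 with HA-GATA2 under anti-HA. The shares of all genes with a peak were then 14.3%, 42.8%, 10.5% and 6.43% in wild-type cells. With HA-GATA2 the shares were 16.9%, 45.3%, 6.8% and 5.93%, and with HA-T354M 9.45%, 29.7%, 4.45% and 6.04%. Under anti-HA the shares with HA-GATA2 were 8.43%, 24.3%, 2.47% and 1.44%. GATA2-low empty-vector libraries held 1.5 with gene ends alone (1.68% of all genes). HA-T354M under anti-HA held 0 without a flank, 1.5 with 50 kb and 0.75 at equal length (1.39%, 5.12% and 1.64% of all genes). The order of the group means thus turned between the tagged proteins under anti-HA at equal length (0.25 with HA-GATA2 against 0.75 with HA-T354M). It turned there for the shares of all genes too (1.44% against 1.64%). At equal length the GATA2-low empty-vector mean of 3.5 stood above those with HA-GATA2 (3.25) and HA-T354M (2.75) under anti-GATA2, the reverse of the full lists. The share of all genes did so as well (6.51% against 5.93% and 6.04%). The order also turned between wild-type and HA-GATA2 cells without a flank (9.5 against 10.2) and with 50 kb (19.8 against 20.8). HA-GATA2 had the higher share of all genes at both settings, as it had in the main one (26.4% against 25.4%). With -log10 q of at least 15 the numbers were 2.5, 10.8 and 6.75 for GATA2-low empty-vector, HA-GATA2 and HA-T354M under anti-GATA2, and 4.25 and 0 for the tagged proteins under anti-HA. Of all genes 5.79%, 21.6%, 11.0%, 8.72% and 1.04% had such a peak, in the same order. Equal length could not be had for the empty-vector anti-HA means. The cause of these shifts was not tested.

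The replicate block called 0 driver genes in all 9 comparisons, since 4 pairs allow no p below 0.125. Same-numbered libraries did not deviate together (correlations of -0.048 to 0.112), so the numbers are not taken as pairs.

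Read totals and depth are unknown, and presence of a peak depends on list length and on the caller's threshold. Binding below that threshold was not analysed here. Windows of neighbouring genes overlap, so a peak can count for several genes.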

Other observations

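Further sites at driver genes were picked out once their values were known. Inside PHF6, the site at chrX:134414330-134414674 was found in 4 of 4 HA-GATA2, 0 of 4 wild-type, 0 of 4 GATA2-low empty-vector and 1 of 4 HA-T354M libraries with anti-GATA2. Inside EZH2, the site at chr7:148863233-148863827 was found in 4 of 4 HA-GATA2, 1 of 4 wild-type, 0 of 4 GATA2-low empty-vector and 1 of 4 HA-T354M libraries. Both sites were in 4 of 4 HA-GATA2 but 0 of 4 empty-vector libraries, as were 23.8% of all sites tested. The PHF6 site was also in 0 of 4 wild-type libraries, a split from HA-GATA2 that 7.94% of all sites had. Fisher's exact test adjusted over all sites called 0.

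Of the 46 driver gene sites, 18 had a peak in 4 of 4 libraries of wild-type cells with anti-GATA2 (39.1%, against 27.8% of all 17277 sites). The number was 3 in GATA2-low empty-vector cells (6.52% against 7.56%), 22 with HA-GATA2 (47.8% against 38.2%) and 7 with HA-T354M (15.2% against 14.8%). The single peaks of BCORL1, STAG2, CBL and, in wild-type cells, IDH1 all came from wild-type replicate 3, the longest wild-type list with 9121 peaks.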
